A study of Mus musculus with 7 samples.

Results

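Fork head (Fox) and Sox genes encode large families of transcription factors. Of the 22180 genes measured in the adrenal glands studied here, 58 with such a symbol were analysed, 41 fork head genes and 17 Sox genes. They were chosen by name, from probe sets annotated with a single symbol. Each gene is represented by its brightest probe set, judged by the mean of all 7 arrays. Another 4 genes of these families were left out and not analysed here. The shares below therefore describe the 58 genes and not the whole families. The arrays were Affymetrix whole-transcript arrays with 1 colour, and each held RNA of whole adrenals taken from females at 2 months of age. The 4 Ezh2 conditional knockout mice (KO) carried sf1:Cre and floxed Ezh2 on both alleles (sf1:Cre; Ezh2 Fl/Fl), and the 3 wild-type mice (WT) were their littermates, on a mixed and uncontrolled background of mainly C57BL/6 and SV129. The sf1 promoter drives Cre in steroidogenic cells of the cortex. Whether medullary, vascular, capsular or immune cells of the gland also carried the deletion was not measured here. Whether WT mice carried a floxed allele is not known here.

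Fork head proteins bind DNA through a winged-helix domain and Sox proteins through an HMG box related to that of Sry. Members of both families fix the identity of cell types in development, and the insulin-regulated FoxO factors and the cell-cycle factor FoxM1 also act in adult tissue. Ezh2 is the catalytic subunit of Polycomb repressive complex 2, which places methyl groups on lysine 27 of histone H3. Genes of developmental transcription factors are known as frequent carriers of this mark in cells that do not express them. The comparison asks which of these transcripts differ when the enzyme is deleted in cells of the cortex.

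Among all 58 genes, Sox12 was the only one called in KO glands, and it rose 1.37-fold. None of the 41 fork head genes and none of the other 16 Sox genes passed the test. A gene was called higher or lower at a Benjamini-Hochberg adjusted p under 0.05 in limma, a linear model fitted to all 22180 genes. By this rule 1 of 58 genes was higher (1.72%) and 0 were lower, whereas the shares over all genes were 8.69% for any call, 5.14% for rises and 3.55% for falls. At an unadjusted p under 0.05 there were 4 of the 58 (6.90%), 2 with positive and 2 with negative changes, against 22.8% of all genes. All KO values lay on one side of all WT values in 4 of the 58 (6.90%: Sox12, Foxj2, Foxo4 and Foxp1), against 20.2% of all genes. Since whole glands were measured, fewer cells of a type and less RNA per cell cannot be told apart.

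**Figure D1:**
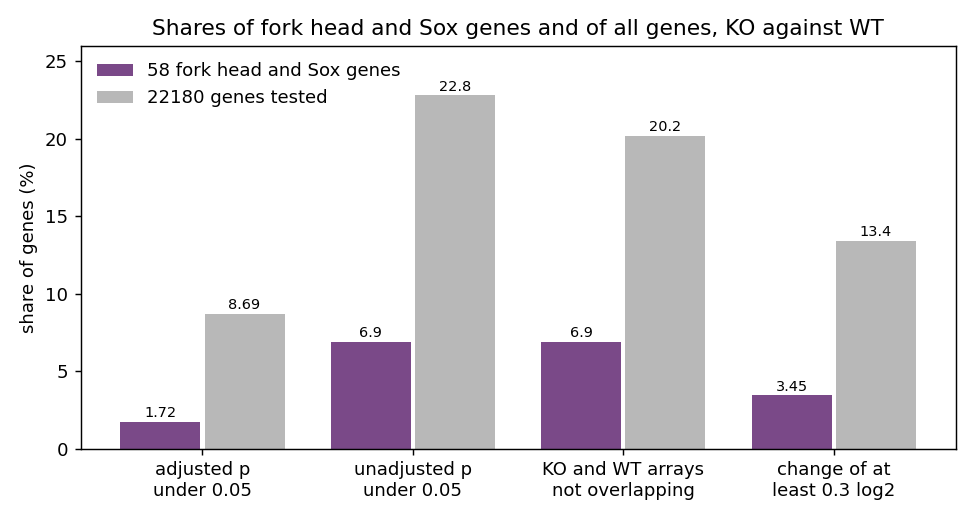
Bars give the share of the 58 fork head and Sox genes (purple) and of all 22180 genes tested (grey), in percent, that met each of 4 criteria in the comparison of 4 KO with 3 WT arrays. The share was lower among the 58 genes for each criterion, 1.72% against 8.69% for genes called at an adjusted p under 0.05 and 3.45% against 13.4% for a change of at least 0.3 log2 units.

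Each change is a log2 difference, KO minus WT, on the scale of the deposited RMA values. Over the 58 genes the median change was -0.006, with 26 positive and 32 negative values, and the median over all genes was 0.000. The change was at least 0.3 in size for 2 of the 58, Sox12 and Foxp2, and the others lay between -0.22 and 0.15. The 95% interval of the change lay inside 1.5-fold in both directions for 56 of the 58 (96.6%), against 87.5% of all genes. It lay inside 0.3 log2 units for 43 of them (74.1%), against 58.5% of all genes. The median residual SD was 0.0965 for the 58 genes and 0.0972 for all genes, so the fit was about as precise for these genes as for the others. The mean of 36 of the 58 lay below the median gene mean of these arrays, and RMA compresses changes of weakly expressed genes. No detection calls were used here, so whether each of these genes was expressed in the gland was not determined.

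**Figure D2:**
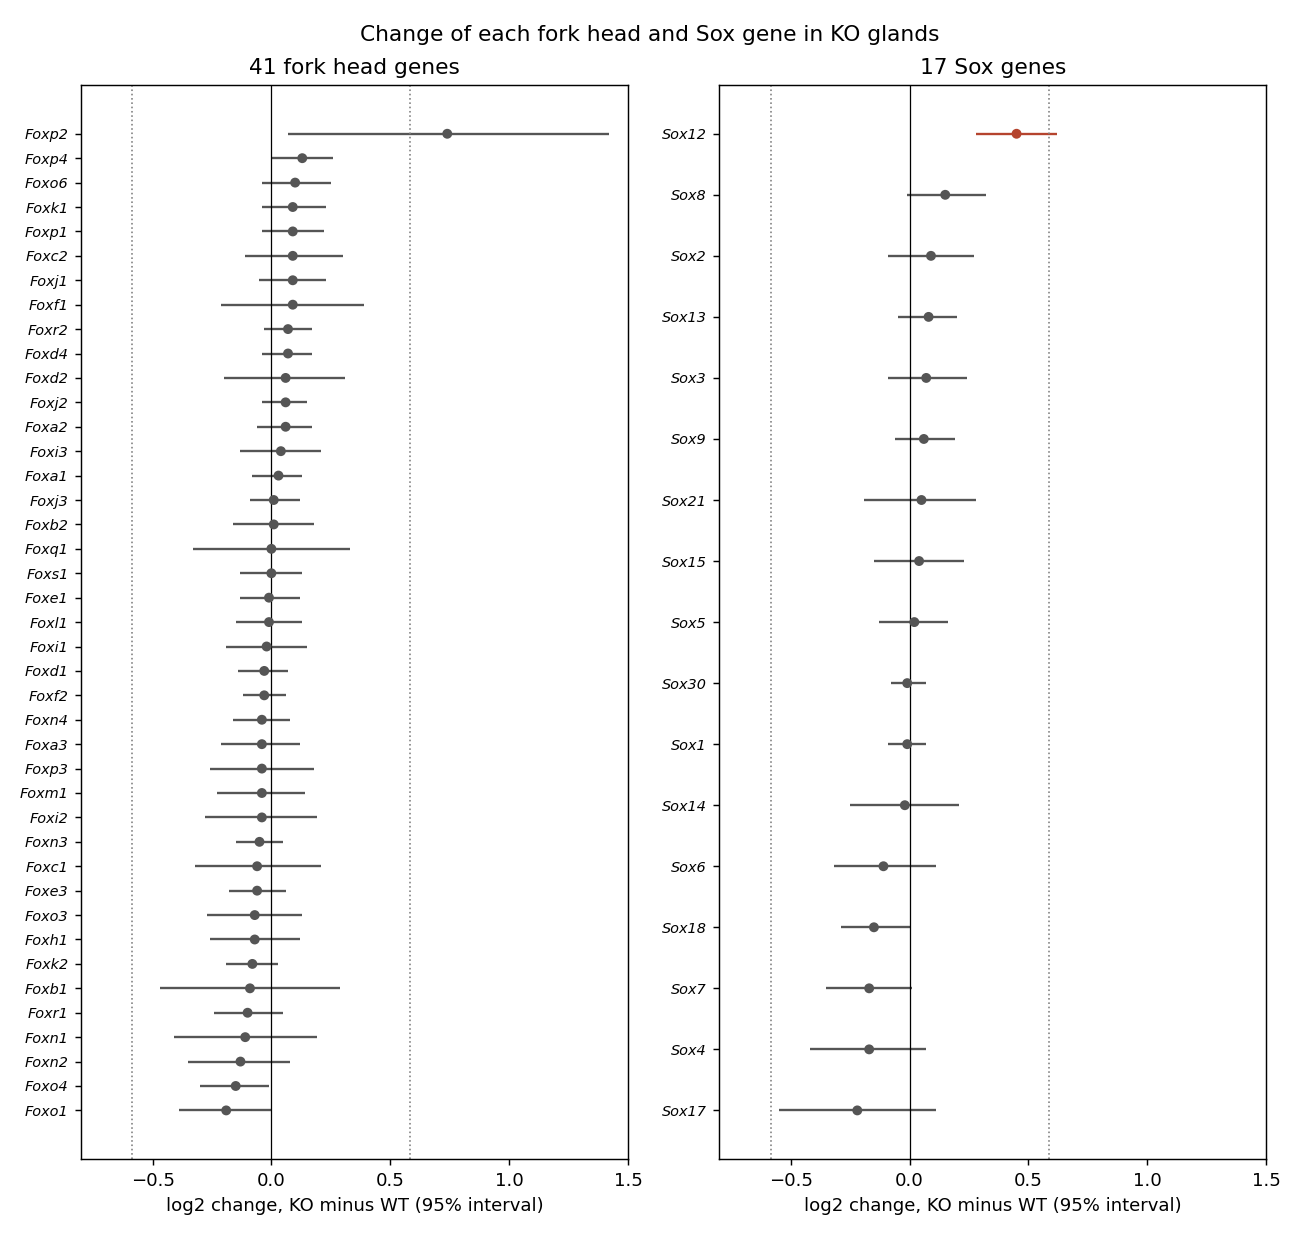
Points show the log2 change (KO minus WT) of each of 41 fork head genes (left) and 17 Sox genes (right) with its 95% interval from limma, in order of size, and the dotted lines mark 1.5-fold. Sox12 (red) is the only called gene, at 0.45, and Foxp2 has the widest interval, 0.07 to 1.42.

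The depth of an array has no count, and the number of arrays limits the precision. Array medians over all probe sets lay between 5.32 and 5.38, and Pearson's r, computed across genes that are not independent replicates, was at least 0.993 within a group and 0.984 to 0.990 between KO and WT arrays. Ezh2 was at 6.86, 7.04, 7.10 and 7.15 in KO and at 7.08 on each WT array (adjusted p = 0.816, limma). Which exons its probe set covers is unknown here, so its level is no check of the genotype. Markers of steroidogenic cells were present in all glands, with a mean of 12.02 to 12.12 over 7 genes in KO and 11.92 to 12.01 in WT. Of these 7, 4 had positive and 3 negative changes, and 6 had an unadjusted p under 0.05 in limma. Only Scarb1 was called, higher in KO by 0.34 on the log2 scale (adjusted p = 0.0390, limma). All 10 measured markers of chromaffin cells rose, and their mean was 10.45 to 10.67 on KO arrays against 9.55 to 9.67 on WT arrays. The mean of 9 markers of capsule and stroma was 8.13 to 8.78 in KO and 7.58 to 7.65 in WT, with 6 called higher. The mean of 9 endothelial markers was 8.52 to 8.84 in KO and 8.80 to 8.89 in WT, with 2 called lower. Macrophage markers averaged 7.52 to 8.01 in KO and 8.17 to 8.20 in WT, and 1 of 7, Lyz2, was called lower. Schwann and glial markers averaged 5.60 to 5.94 in KO and 5.23 to 5.31 in WT, with 1 of 7 called higher. Adipocyte markers averaged 6.94 to 8.74 in KO, lowest on KO replicate 1, and 8.27 to 9.31 in WT, and limma called 0 of 8, of which 1 had an unadjusted p under 0.05.

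Sox group C holds factors of neural, mesenchymal and other progenitor cells. Sox12, a widely expressed member of this group, was at 5.89, 6.14, 5.98 and 5.95 log2 units on the KO arrays, against 5.60, 5.58 and 5.44 on the WT arrays. Every KO array lay above every WT array. The KO mean was 5.99 ± 0.10 (SD, n = 4) and the WT mean 5.54 ± 0.09 (SD, n = 3), which differ by 0.45 (SE 0.07) on the log2 scale, with a 95% interval of 0.28 to 0.62 (adjusted p = 0.0103, limma). Leaving out any 1 of the 7 arrays kept Sox12 called, at log2 changes of 0.40 to 0.48. Its adjusted p was 0.0649 with the title's replicate number as a block, at a log2 change of 0.46. On the same arrays the chromaffin marker mean was 0.93 and the capsule and stroma mean 0.86 higher in KO, and their part in the change of Sox12 was not tested. With the chromaffin mean as a covariate the log2 change of Sox12 was 0.33 (adjusted p = 0.904), and no gene of the 22180 was called in that fit, where the covariate and the genotype nearly coincide.

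Sox4, the other group C gene analysed here, is a factor of progenitor and tumour cells. It was at 7.43, 7.26, 7.10 and 7.44 in KO, against 7.38, 7.40 and 7.65 in WT. The groups overlapped, and the log2 change was -0.17 (SE 0.10, 95% interval -0.42 to 0.07, adjusted p = 0.385, limma). It was -0.09 without WT replicate 3 and -0.10 without KO replicate 3. A second probe set of Sox4 gave a change of -0.16 (adjusted p = 0.583). The intervals of the changes of Sox12 and Sox4 did not overlap, although the difference between them was not tested. The 250 bases before the start of each gene are shown because Sox12 was called and its relative Sox4 was not. They come from RefSeq (GRCm38.p6), in lower case with each CpG in capitals. The Sox12 stretch is chr2:152398047-152398296 and the Sox4 stretch chr13:28953700-28953949, both on the minus strand.
Sox12: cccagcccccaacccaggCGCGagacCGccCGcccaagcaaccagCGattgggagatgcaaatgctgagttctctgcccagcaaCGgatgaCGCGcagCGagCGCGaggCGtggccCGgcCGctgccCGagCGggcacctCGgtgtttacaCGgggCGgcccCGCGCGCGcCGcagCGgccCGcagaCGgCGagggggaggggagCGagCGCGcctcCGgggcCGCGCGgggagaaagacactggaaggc
Sox4: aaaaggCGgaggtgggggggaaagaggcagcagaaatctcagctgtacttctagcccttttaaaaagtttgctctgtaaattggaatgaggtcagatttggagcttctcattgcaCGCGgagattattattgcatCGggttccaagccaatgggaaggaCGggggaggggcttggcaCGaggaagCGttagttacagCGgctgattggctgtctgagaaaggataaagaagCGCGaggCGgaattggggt
The Sox12 stretch holds 35 CpG and is 74.4% G or C, and the Sox4 stretch holds 11 CpG and is 50.8% G or C. The pair was chosen after its values were seen.

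RefSeq promoter windows (250 bases before and 50 after the start) were found for 38 of the 58 genes, 48 windows in all. The member windows held a median of 15.5 CpG and 62.5% G or C, against 7.0 CpG and 52.7% over all 32851 windows. With 47 CpG the Sox12 window was the richest among Sox genes, whose range was 2 to 47, and Foxk2, a fork head gene that was not called, had the richest of the 48, with 59. The 6 windows of Sox6 held 2 to 13 CpG. A fork head recognition string, TGTTTAC, read on both strands, was in 2 of the 48 member windows (4.17%) and in 3.65% of all windows. Sox12 held 1 copy, from 107 to 101 bases before the start. The variant TATTTAC was in 0 of the 48 windows, against 3.04% of all. The Sox core ACAAT was in 10 of the 48 member windows (20.8%), against 31% of all. AAGGTCA, the core that steroidogenic factor 1 reads, was in only 4 of the 48 (8.33%), against 4.72% of all. Genes with several windows, such as Sox6, were counted once per window. CACGTG was in 2.08% against 7.15% and TATAAA in 10.4% against 13.6%. Each string was counted on its own, so matches that overlap count under both strings, and such letters do not show that a factor binds.

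The FoxP factors, fork head repressors that act in brain, lung and lymphocytes, included the largest change of the 58. Foxp2, a factor of neurons and of mesenchyme, was at 5.31, 5.87, 6.43 and 6.08 in KO, against 5.25, 5.54 and 4.75 in WT. KO replicate 1 lay within the WT range and the other KO arrays lay above it. The log2 change was 0.74 (SE 0.29, 95% interval 0.07 to 1.42) and did not pass the test (unadjusted p = 0.0354, adjusted p = 0.179, limma). It was 0.95 without KO replicate 1 (adjusted p = 0.0783), 0.53 without WT replicate 3 (adjusted p = 0.433) and 2.82 with the chromaffin mean as a covariate (adjusted p = 0.744). In the authors' deposited table it was 0.87 with an adjusted p of 0.0736. The capsule and stroma marker mean was 8.13, 8.46, 8.78 and 8.56 on KO replicates 1 to 4 and 7.65, 7.58 and 7.64 on WT replicates 1 to 3. Its part in the value of Foxp2 was not tested.

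Foxp1, which acts in blood and endothelial cells, was at 7.64, 7.64, 7.81 and 7.75 in KO, against 7.64, 7.59 and 7.63 in WT. The groups did not overlap, though by less than the second decimal, and the log2 change was 0.09 (adjusted p = 0.367, limma). Foxp4 was at 6.70, 6.77, 6.70 and 6.71 in KO, against 6.50, 6.70 and 6.58 in WT (log2 change 0.13, adjusted p = 0.225, limma). Foxp3, the defining factor of regulatory T cells, was at 4.39, 4.67, 4.64 and 4.70 in KO, against 4.78, 4.64 and 4.52 in WT, with overlap (log2 change -0.04, 95% interval -0.26 to 0.18). None of 6 measured lymphocyte markers was called, by limma, and 1 had an unadjusted p under 0.05.

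The FoxO factors are kept out of the nucleus when insulin signalling through PI3 kinase and Akt is active. Foxo1, the member best known from liver and pancreas, was at 7.71, 7.99, 7.99 and 7.85 in KO, against 8.08, 8.17 and 7.99 in WT. The log2 change was -0.19 (SE 0.08, 95% interval -0.39 to 0.00, adjusted p = 0.224, limma), and a second, dimmer probe set gave -0.08 (adjusted p = 0.683). Foxo4 was at 6.44, 6.62, 6.51 and 6.66 in KO, against 6.68, 6.72 and 6.73 in WT. Here every KO array lay below every WT array, but the log2 change of -0.15 did not pass the test (unadjusted p = 0.0356, adjusted p = 0.179, limma). Foxo3, known for its part in ovarian follicle reserve, was at 6.88, 6.75, 7.12 and 6.98 in KO, against 6.99, 6.99 and 7.03 in WT, with overlap and a log2 change of -0.07. Foxo6, a mainly neural member, was at 5.43, 5.33, 5.33 and 5.36 in KO, against 5.33, 5.33 and 5.12 in WT, also with overlap and with a log2 change of 0.10.

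Some genes that signal to FoxO, and some that FoxO factors are known to regulate, were called in KO. Of 15 measured genes upstream of FoxO, 1 rose and 1 fell (13.3% called, against 8.69% of all genes), with a median log2 change of -0.07. The insulin receptor substrate Irs2 rose by 0.47 (SE 0.11, adjusted p = 0.0411, limma) and the kinase Akt1 fell by 0.37 on the log2 scale (SE 0.07, adjusted p = 0.0212). Among the brightest genes not called, the 14-3-3 protein gene Ywhaz, the PI3 kinase subunit Pik3r1 and the receptor Igf1r had log2 changes of 0.04, -0.50 and -0.07 (adjusted p of 0.639, 0.0517 and 0.486). Of 21 FoxO targets, 4 rose and 4 fell (38.1% called), with a median of -0.07. The rises were those of G6pc, the glucose-6-phosphatase of glucose output (1.5, SE 0.12, adjusted p = 0.00137), Trp53inp1 (0.66), Irs2 and the ubiquitin ligase Fbxo32 (0.38). The falls were those of Bnip3, a mitophagy receptor (-1.37, SE 0.09, adjusted p = 0.000767), the repressor Bcl6 (-1.36), the mitochondrial superoxide dismutase Sod2 (-0.71) and the cell-cycle inhibitor Cdkn1b (-0.42). The targets thus moved in both directions. Txnip, Cat and Cited2, the brightest targets not called, had log2 changes of -0.13, -0.32 and 0.09.

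Sox group F holds the endothelial factors Sox7, Sox17 and Sox18, which act in vessel growth and in arterial and lymphatic fate. None was called, and all 3 had negative changes. Sox18 was at 6.32, 6.47, 6.38 and 6.40 in KO, against 6.49, 6.47 and 6.66 in WT (log2 change -0.15, unadjusted p = 0.0478, adjusted p = 0.213, limma). Sox7 was at 5.66, 5.73, 5.48 and 5.49 in KO, against 5.79, 5.68 and 5.81 in WT (log2 change -0.17, adjusted p = 0.244, limma). Sox17 was at 6.03, 6.27, 6.58 and 6.42 in KO, against 6.73, 6.48 and 6.42 in WT (log2 change -0.22, 95% interval -0.55 to 0.11, adjusted p = 0.406, limma). The KO and WT arrays overlapped for each of the 3. The change of Sox17 was -0.12 without KO replicate 1 and likewise without WT replicate 1. The endothelial marker mean was 8.52, 8.70, 8.84 and 8.79 on KO replicates 1 to 4 and 8.89, 8.80 and 8.89 on WT replicates 1 to 3, and its part in these values was not tested. Of 13 partners and targets of these factors, 0 rose and 2 fell (15.4% called, against 8.69% of all genes), with a median of -0.09. The angiopoietin receptor Tek fell by 0.47 and the lymphatic factor Prox1 by 0.40 on the log2 scale (adjusted p = 0.0390 and 0.00719, limma). Of the 13 changes 11 were negative, from -0.47 to -0.01, and 2 were positive. Over all 22180 genes 11056 changes were negative. The brightest genes of the list that were not called were the cadherin Cdh5 and the growth factor receptors Kdr and Flt1, with log2 changes of 0.28, -0.26 and -0.36 (adjusted p of 0.265, 0.206 and 0.0776). Tek, Cdh5, Kdr and Flt1 are also among the endothelial markers, so this list and the marker mean are not separate measures.

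**Figure D3:**
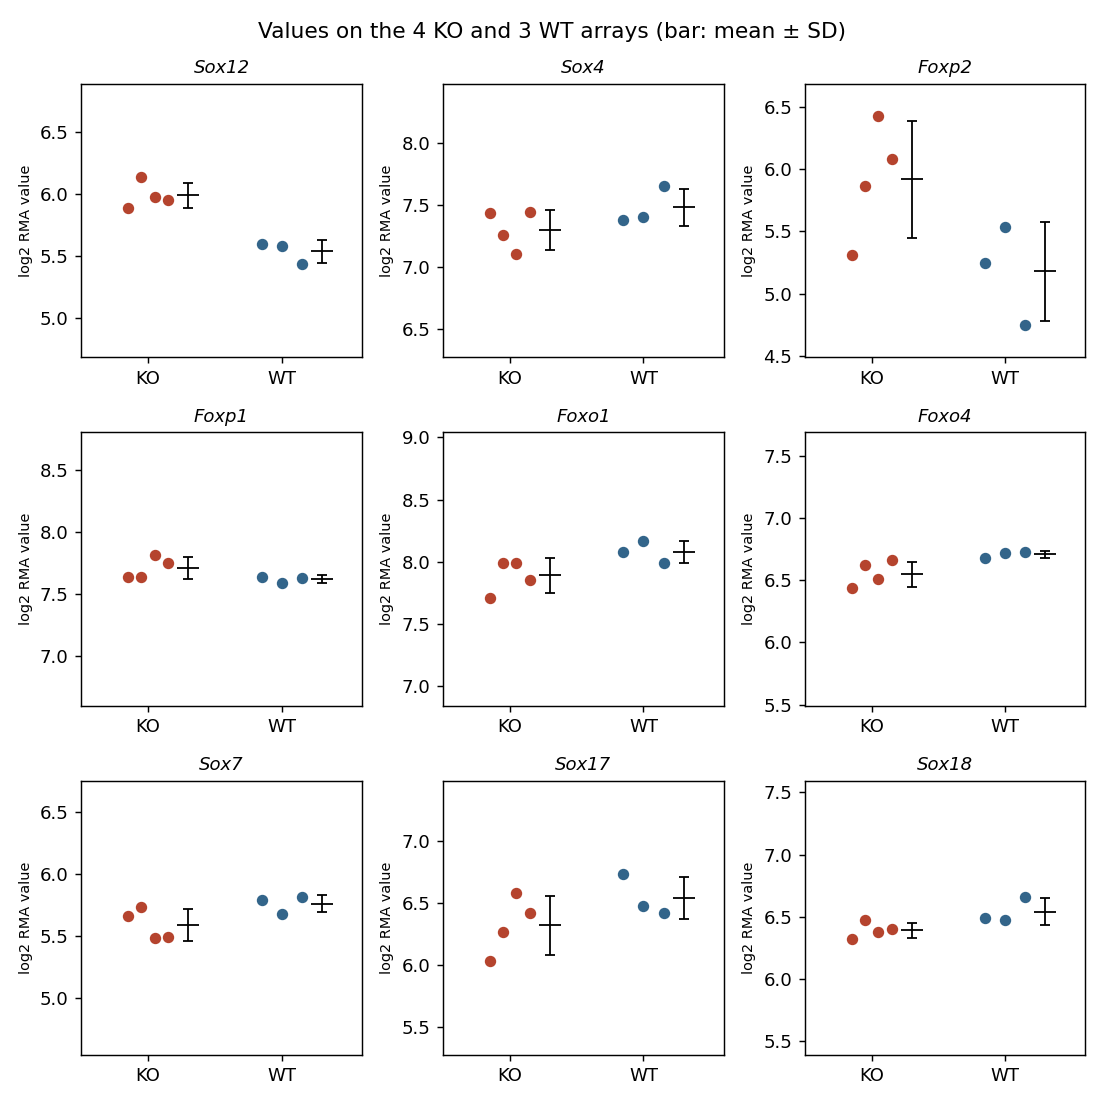
Points show log2 RMA values of 9 genes on the 4 KO arrays (red, left) and the 3 WT arrays (blue, right), with the mean and SD of each group as a bar; every panel spans the same range of log2 units. The groups lie clearly apart for Sox12, by little for Foxo4 (highest KO 6.66, lowest WT 6.68) and Foxp1, and overlap for the other 6 genes. For Foxp2 KO replicate 1, at 5.31, lies among the WT arrays.

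None of the broadly expressed fork head genes was called. Foxk2, a repressor of autophagy genes, was at 8.0, 8.0, 7.91 and 7.95 in KO, against 8.02, 7.99 and 8.13 in WT (log2 change -0.08, adjusted p = 0.387, limma), and its relative Foxk1 had a log2 change of 0.09. Foxn3, a checkpoint repressor, was at 7.94, 7.85, 7.94 and 7.95 in KO, against 8.0, 7.96 and 7.95 in WT (log2 change -0.05, adjusted p = 0.533, limma). Foxn2 was at 7.36, 7.56, 7.75 and 7.68 in KO, against 7.73, 7.75 and 7.68 in WT, where KO replicates 1 and 2 lay below all WT arrays (log2 change -0.13, adjusted p = 0.449, limma). Foxj2 was at 7.68, 7.64, 7.70 and 7.64 in KO, against 7.63, 7.63 and 7.56 in WT. Its groups did not overlap, with a log2 change of 0.06 (adjusted p = 0.441, limma), and a second probe set gave -0.04. Foxj3 was at 7.57 ± 0.05 in KO (SD, n = 4) and 7.55 ± 0.02 in WT (SD, n = 3).

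No fork head factor of mesenchyme, endoderm or kidney was called. Foxf1, a hedgehog-responsive factor of visceral mesenchyme, was at 6.34, 6.12, 6.15 and 6.00 in KO, against 5.80, 6.30 and 6.10 in WT (log2 change 0.09, 95% interval -0.21 to 0.39). Its relative Foxf2 had a log2 change of -0.03 and Foxl1, a factor of gut mesenchyme, one of -0.01. Foxc1 and Foxc2, factors of mesoderm and vessels, had log2 changes of -0.06 and 0.09, Foxd1, a factor of kidney stroma, one of -0.03 and Foxd2 one of 0.06. The pioneer factors of endoderm, Foxa1, Foxa2 and Foxa3, had log2 changes of 0.03, 0.06 and -0.04, all with intervals between -0.21 and 0.17. Several of these genes are neighbours: Foxc2 and Foxl1 on chromosome 8, Foxq1, Foxf2 and Foxc1 on chromosome 13, and Foxd2 and Foxe3 on chromosome 4 follow each other with 0 protein-coding genes between them in RefSeq. The log2 changes in these 3 runs lay between -0.06 and 0.09.

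The hedgehog pathway, which acts on the fork head genes of groups F and L in gut and lung mesenchyme, included called genes. Of 10 measured genes of this list 4 rose and 0 fell (40.0% called, against 8.69% of all genes), with a median log2 change of 0.19. The transcription factors Gli1 and Gli2 rose by 0.82 and 0.60, the receptor Ptch1 by 0.79 and the inhibitor Hhip by 0.86 (adjusted p of 0.0242, 0.0193, 0.0194 and 0.00933, limma). The signal transducer Smo was at 8.87 in both groups, and Bmp4 and the ligand Ihh had log2 changes of 0.24 and 0.10 (adjusted p of 0.275 and 0.568). Capsule and stroma markers, among them Gli1 itself, were higher on the same arrays, as given above, and their part was not tested.

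Foxm1, which drives genes of mitosis, was at 5.20 ± 0.11 in KO (SD, n = 4) and 5.24 ± 0.11 in WT (SD, n = 3), a log2 change of -0.04 (95% interval -0.23 to 0.14). None of 13 measured FoxM1 targets was called by limma, 1 had an unadjusted p under 0.05, and the median was -0.05. Skp2, Aurkb and Plk1, with the highest means of that list, had log2 changes of 0.02, 0.00 and -0.05. Foxj1, the master factor of motile cilia, had a log2 change of 0.09 (95% interval -0.05 to 0.23). Of 11 measured ciliary targets 1 rose and 0 fell (9.09% called, near the 8.69% of all genes), with a median of 0.01. The riser was Cfap126 (0.50, SE 0.09, adjusted p = 0.0177, limma), a protein of the base of motile cilia, and Ccdc40, Rsph1 and Spag6, the brightest targets not called, had log2 changes of 0.10, 0.33 and -0.16.

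The other fork head genes analysed here, known mainly from single tissues or from the embryo, were not called either. The log2 changes of Foxb1 and Foxb2, of the embryonic brain, were -0.09 and 0.01. The arrays of Foxb1 spread widely, with SDs of 0.15 in KO and 0.35 in WT. Foxe1, the thyroid factor, and Foxe3, the lens factor, had log2 changes of -0.01 and -0.06. Foxi1, a factor of ion-transporting cells in inner ear and kidney, had one of -0.02, Foxi2 one of -0.04 and Foxi3 one of 0.04. Foxn1, the thymic epithelial factor, had one of -0.11 (95% interval -0.41 to 0.19), and Foxn4, a retinal factor, one of -0.04. Foxh1, a partner of nodal signalling, had one of -0.07, Foxq1 and Foxs1 each one of 0.00 in size, Foxd4 one of 0.07, and Foxr1 and Foxr2 had changes of -0.10 and 0.07.

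The remaining Sox genes were likewise not called. Of group E, Sox9, the factor of cartilage and of the testis, and Sox8 were analysed here. Sox9 was at 6.01, 5.97, 6.01 and 6.13 in KO, against 5.90, 6.02 and 5.97 in WT (log2 change 0.06, 95% interval -0.06 to 0.19). Sox8 had a log2 change of 0.15 (95% interval -0.01 to 0.32, adjusted p = 0.257, limma). Group D holds partners of Sox9 in cartilage, and Sox5, Sox6 and Sox13 had log2 changes of 0.02, -0.11 and 0.08. Of 12 measured targets of these factors in cartilage 1 rose and 0 fell (8.33% called, near the 8.69% of all genes), with a median of 0.09. It was the fibrillar collagen Col11a1, at 1.18 (SE 0.12, adjusted p = 0.00230, limma), whereas the log2 changes of Col9a2, of Col2a1, the main collagen of cartilage, and of the link protein Hapln1 were -0.04, 0.10 and 0.64 (adjusted p of 0.634, 0.357 and 0.107). On the same arrays the stromal collagens Col1a2 and Col1a1 had log2 changes of 0.74 (adjusted p = 0.0377) and 0.51 (adjusted p = 0.0899), and the part of stroma in the value of Col11a1 was not tested.

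Group B1 holds factors of neural and pluripotent stem cells. Sox2, the best known of them, was at 4.08, 4.28, 4.08 and 4.08 in KO, against 4.02, 4.17 and 3.93 in WT (log2 change 0.09). Sox1 had a log2 change of -0.01 and Sox3, a pituitary and neural factor, one of 0.07. In group B2, Sox14 and Sox21 had log2 changes of -0.02 and 0.05, in group G Sox15 one of 0.04 and in group H the spermatid factor Sox30 one of -0.01. All 3 WT arrays shared a single value in 3 of the 58 genes, Sox1, Sox21 and Sox30 (5.17%), against 3.21% of all genes. At least 3 of the 7 arrays shared exactly the same deposited value, before rounding, for 19 of the 58 genes (32.8%), against 31.4% of all genes.

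Group C factors act in neural and chromaffin cells. Of 9 measured genes of a list of their partners there, 4 rose and 0 fell (44.4% called, against 8.69% of all genes). Like the other lists, it was chosen with earlier results of these data known, so its share is not a test of these factors. The median log2 change was 0.80. Stmn2, a microtubule regulator of neurons, rose by 1.32, and the sympathoadrenal factors Hand2, Isl1 and Gata3 rose by 1.00, 0.90 and 0.80 (adjusted p of 0.00976, 0.00352, 0.00572 and 0.0104, limma). Tubb3, the neuronal tubulin, had a log2 change of 1.17 with an SD of 0.99 in KO (SD, n = 4) and did not pass the test (adjusted p = 0.218). Tead2 and the neurofilament Nefl had log2 changes of 0.11 and 0.79 (adjusted p of 0.417 and 0.330). The mean of this list was 6.24 to 6.84 on KO arrays and 5.68 to 5.76 on WT arrays, beside the chromaffin marker means given above, and their part in it was not tested.

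**Figure D4:**
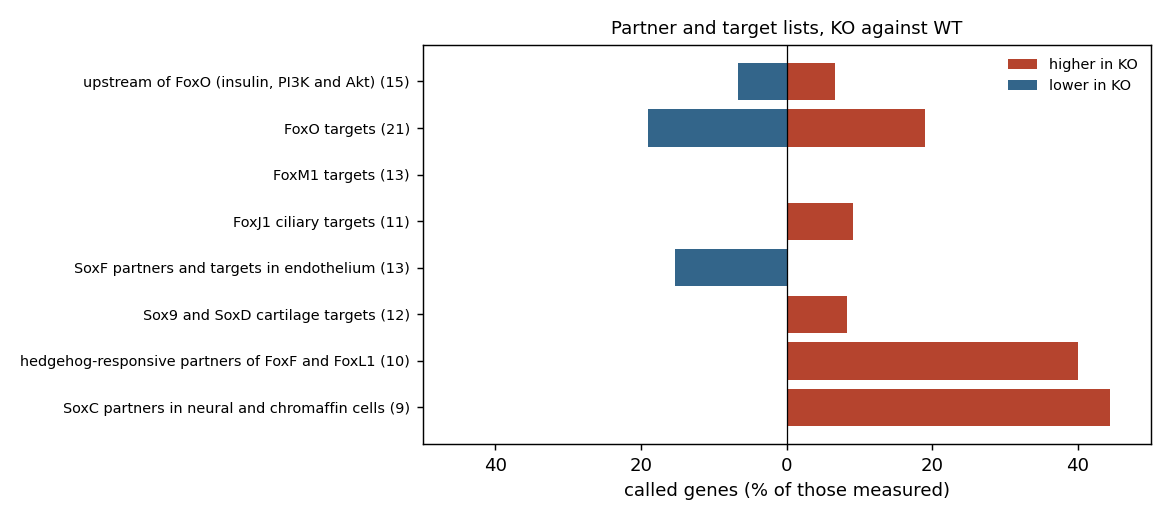
Bars give, for 8 lists of partners and targets of fork head and Sox factors, the share of measured genes (number in brackets) called lower (blue, to the left) and higher (red, to the right) in KO, in percent. The longest bars are those of the hedgehog list (40.0% higher) and the list of neural and chromaffin genes (44.4% higher), while no FoxM1 target was called. Over all 22180 genes 5.14% were called higher and 3.55% lower. The lists were chosen with earlier results of these data known.

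For the 6 members with a second probe set (Foxe1, Foxj2, Foxo1, Foxq1, Sox4 and Sox21), none of the 12 probe sets was called by limma, and their log2 changes lay between -0.19 and 0.06. The authors' deposited table, a second processing of the same arrays, listed all 58 genes. Sox12 alone had an adjusted p under 0.05 there (log2 change 0.47, adjusted p = 0.00515), among 2785 of 28638 symbols.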

How the data were processed

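The authors deposited log2 values of 41345 probe sets, made with RMA per the submitters' processing notes, which corrects background, normalizes by quantiles and summarises probes. Neither the RMA version nor a genome build was found in the labels. The authors' deposited table of KO against WT gives log2 fold changes with raw and adjusted p-values, and its test is not stated. Exactly 1 symbol was given for 23521 probe sets, several for 1820, and 16004 are unnamed here. No low values were filtered out, which left 22180 genes. The comparison of KO and WT used limma 3.58.1 (lmFit, eBayes) under R 4.3.3, two-sided, without covariates, with Benjamini-Hochberg adjustment over all genes; the fit left 5 residual degrees of freedom. On simulated data for this comparison (200 of 22180 genes changed, 10 draws) 92.0% of changes of 1 and 63.4% of changes of 0.5 log2 units were recovered, and 5.93% of calls were false. In the real data 1928 genes were called, and the adjusted p depends on that share, so these rates need not hold there.

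The genes, the lists and the tests were chosen with earlier results of these data known. Every member could be named. Array values are given for called members, for the 6 with the highest mean, and, chosen after their values were seen, for groups O and P, Sox groups C and F and members named with an unadjusted p. Foxf1, Sox9 and Sox2 were added in the same way. Of each list, called genes and up to 3 others with the highest means are named. The replicates are separate animals per the labels. Their numbers are not said to mark litters or batches, and deviations of same-numbered arrays from their group means correlated at 0.07, -0.08 and -0.11 by the title's number and at -0.07, 0.21 and -0.02 by the description's, not over 0.1 in every pair, so they were not treated as pairs. Alternatives covered filter, probe set rule, variance prior, centring, normalization, weights, blocks, a covariate, thresholds and single arrays left out. Proteins were not compared.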

Additional observations from a re-analysis of the deposited data

Results flagged for a closer look

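In 11 of the 58 genes 1 KO array stood apart from the other 3 by Dixon's test at the 95% level. Chance flags about 1 in 20 groups of normally distributed values, and the share over all genes is not given here. The gaps were small, and in 6 of the genes the other KO arrays shared 1 value to the second decimal. Such ties favour a flag, however small the gap. At least 3 of the 7 arrays shared a value in 32.8% of the 58 genes and in 31.4% of all genes. The count is therefore not read as a trait of these genes. The array that stood apart was KO replicate 1 for Foxa1 (4.61, others 4.60), Foxe1 (5.53, others 5.38 to 5.39), Sox1 (4.57, others 4.60) and Sox30 (4.51, others 4.54). It was KO replicate 2 for Foxa2 (6.33, others 6.31), Foxn3 (7.85, others 7.94 to 7.95), Foxp4 (6.77, others 6.70 to 6.71) and Sox2 (4.28, others 4.08). It was KO replicate 3 for Foxd4 (4.27, others 4.20 to 4.21) and Foxn4 (5.09, others 5.24), and KO replicate 4 for Foxa3 (5.39, others 5.62 to 5.66). None of these 11 genes was called.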

How the results depend on the processing

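Sox12 remained the only called gene of the 58 with probe sets of a gene averaged, with a trended and robust variance prior, with either centring of the arrays, after a further quantile normalization, with array weights, with the replicate block by the number in the sample description, and without any single array. The count of higher genes among the 58 was 0 with the replicate block by title number, with the chromaffin mean as a covariate, with a minimum of 1.5-fold, at an adjusted p under 0.01, and with genes below the median gene mean left out, where only 22 of the 58 were tested, Sox12 not among them, and 19.9% of all genes were called. The count of lower genes was 0 in each of these settings. Over all genes, counts of higher and lower calls were 523 and 286 with the block by title number, 610 and 393 with the block by description number, 0 and 0 with the chromaffin covariate, 566 and 236 at 1.5-fold or more, and 460 and 265 at an adjusted p under 0.01. With arrays centred on their medians over the genes tested, chosen after seeing the data, they were 1005 and 1329, and rises made up 43.1% of the calls, against 59.1% without that centring. Without each array in turn they were 594 to 945 and 322 to 654, and either count moved by over 1.5 times without WT replicate 2 (633 and 394) or 3 (594 and 322), and the lower count alone without KO replicate 2 (477) or 3 (515). The chromaffin covariate turned the sign of uncalled changes to -0.07 for Foxj2, 0.99 for Foxn2, 0.02 for Foxn3, 0.11 for Foxo1, 0.73 for Foxo3, 0.29 for Foxo4, -0.38 for Foxo6, 0.67 for Foxp3, -0.10 for Foxp4, 1.33 for Sox17 and 0.25 for Sox18, with adjusted p values from 0.631 up to 0.995. In that fit the covariate and the genotype nearly coincide, so these changes and their signs are poorly determined. The uncalled change of Foxp2 was 0.95 (adjusted p = 0.0593) with the block by description number, and that of Sox17 was -0.12. The change of Foxp3 was 0.03 with the block by description number and between -0.11 and 0.03 without single arrays. The cause was not tested. Signal over background was not available, so changes of weakly expressed genes may be understated.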
